A study of Rattus norvegicus with 12 samples.

Results

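Genes of bone morphogenetic protein (BMP) signalling are described in rat lung after exposure to 2,3-butanedione (diacetyl, DA), a butter flavouring compound. They are the secreted antagonists Grem1, Nog and Chrdl1, the ligands Bmp2, Bmp4 and Bmp6, the receptor Bmpr2 and the target genes Id1 and Id3, which are 9 of the 23096 genes in the table. The genes were chosen because Grem1 is much higher in DA than in control lungs, so the difference of each of the 9 between the groups is given as a description. Where a gene of the 9 is given as past or not past an adjusted p threshold, nothing is read from it. The same contrast served to choose these genes, so it cannot test them. RNA was sequenced from lung tissue with its bronchi of 12 Sprague Dawley rats, labelled male, aged 8 weeks and weighing 300 g. The 6 control rats had sterile water instilled into the trachea, and the 6 DA rats had DA instilled at 125 mg/kg once daily over 7 days, with tissue taken 24 h after the last dose. The study compared the lungs of these groups to profile bronchiolitis obliterans, a disease in which small airways are narrowed by scar tissue.

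BMP ligands are secreted dimers that bind paired type I and type II receptors, of which BMPR2 is a type II receptor. The active receptors phosphorylate SMAD1, SMAD5 and SMAD9, which enter the nucleus with SMAD4 and switch on target genes, among them the Id genes, whose products block helix-loop-helix transcription factors. Gremlin 1, noggin and chordin-like 1 bind BMPs outside the cell and keep them from the receptors. In lung, BMPR2 is prominent in the endothelium, its loss-of-function mutations cause heritable pulmonary arterial hypertension in humans, and gremlin 1 has been linked to lung fibrosis.

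Libraries held 13723207 to 16271842 counts, with 16579 to 17354 genes detected. Alveolar type 2 marker genes such as Sftpc were abundant in all 12, with a summed level over 6 markers of at least 10053 CPM (reads of a gene scaled to the size of its library). Some libraries went against their label or stood apart. Although all rats are labelled male, 4 control and 2 DA libraries held 1 to 9 counts summed over 5 Y-linked genes, against 2189 to 2884 in the other 2 control and 4 DA libraries. DA replicate 4 held 476 CPM summed over 5 cardiac muscle genes, against 1.15 to 20.2 CPM elsewhere. It also had the lowest endothelial, alveolar type 1 and alveolar type 2 sums of the 12 libraries. For some genes, results are therefore also given without it or by the presence of Y-linked reads. In whole tissue, fewer cells of a type and less RNA per cell cannot be told apart.

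All 9 genes passed the count filter. Grem1 did so through the DA libraries alone, since every control library held fewer than 10 of its reads. In the fit over all 14517 genes that passed, edgeR's quasi-likelihood test called 2316 genes at an adjusted p under 0.05, or 16.0%. Of these, 1226 (8.45%) were higher and 1090 (7.51%) lower in DA, and under upper quartile scaling the split was 1662 and 853. The groups did not overlap in 6.04% of the genes. Of the 9 genes, Grem1 was past the threshold upward and Bmpr2 downward. Grem1 was the one whose groups did not overlap. Nothing is read from these counts, because the same contrast served to choose the genes.

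**Figure D1:**
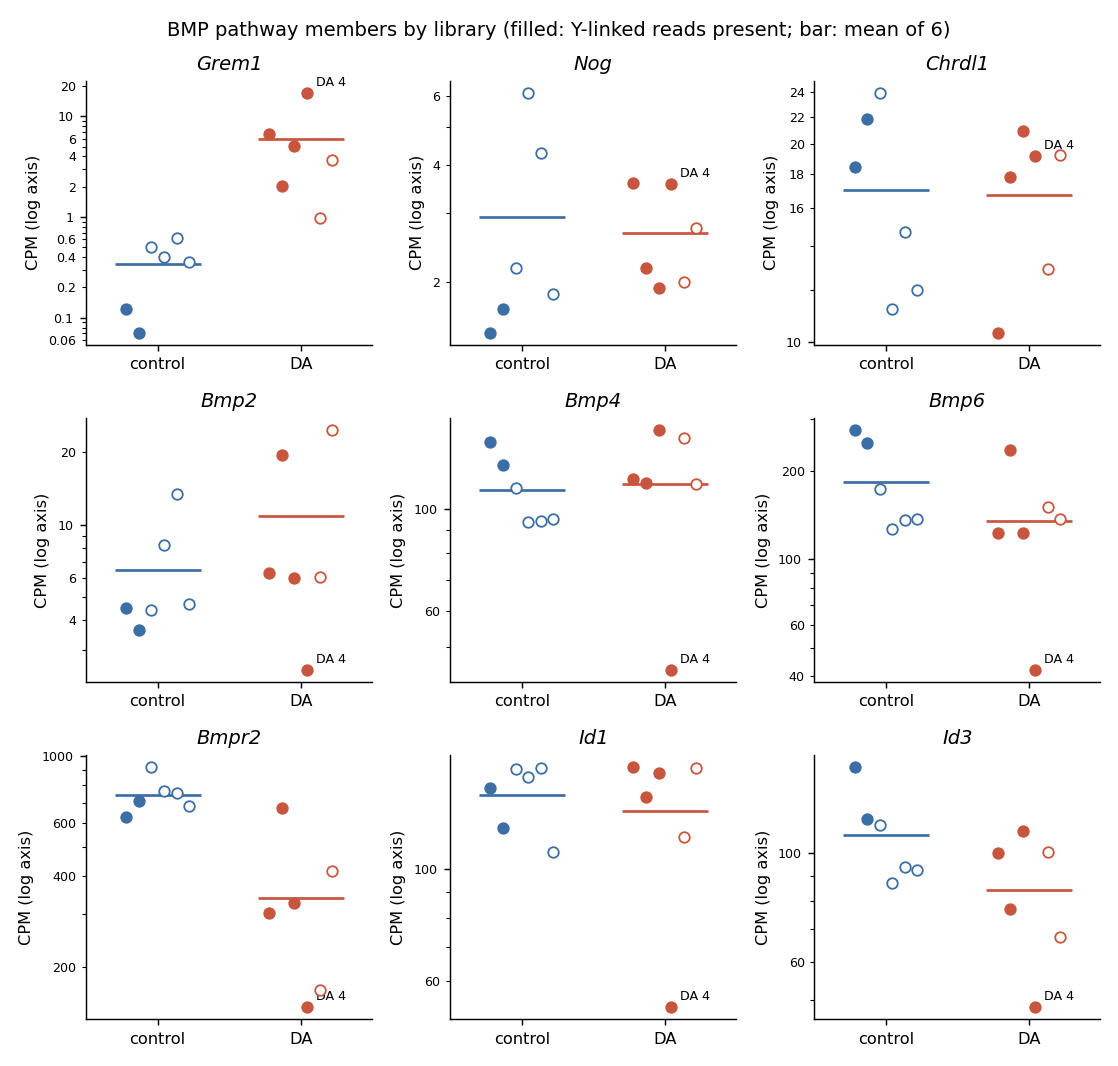
CPM on log axes of the 9 genes in each of 6 control and 6 DA libraries, with the group mean as a bar and filled points for libraries with Y-linked reads. Grem1 lay at 0.968 CPM or more in the DA libraries and at 0.612 CPM or less in the control libraries, and the groups overlap in the other 8 panels.

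Among the antagonists, Grem1 (ENSRNOG00000026053) was close to undetected in control lungs and present in each DA lung. The control libraries held 2, 1, 7, 6, 9 and 5 reads, in the order of replicates 1 to 6. The DA libraries held 97, 29, 76, 266, 15 and 52 reads. On the CPM scale the control libraries ran from 0.0713 through a median of 0.379 to 0.612 CPM, and the DA libraries from 0.968 through 4.36 to 16.96 CPM. A level of 3 reads, up to which a count of 0 would be compatible, is 0.186 to 0.218 CPM by library, so control replicates 1 and 2 lay below it; this limit covers counting error only. The mean went from 0.345 ± 0.212 CPM to 5.88 ± 5.79 CPM (SD, n = 6), and the fitted log2 fold change was 4.06 ± 0.70 (SE). DA replicate 4 alone held 49.7% of the 535 DA reads. Without it the log2 fold change was 3.38, and over the 12 fits that each left out 1 library it ran from 3.38 to 4.30. The size depended more on the scale than on any library. On log2(FPKM + 0.5), where FPKM is a read level scaled to gene length and library size, the difference in Grem1 was 1.03, with control values of at most 0.0753 FPKM. At an offset of 1 it was 0.66 and Grem1 was not past the threshold. The libraries with Y-linked reads included the control libraries with the fewest Grem1 reads, 2 and 1, against 29 to 266 in DA. Among libraries without such reads the counts were 5 to 9 in control and 15 and 52 in DA. The groups did not overlap in either set, which follows from the lack of overlap over all 12 libraries. The log2 fold change was 6.16 ± 1.21 (SE) with such reads, where no gene was past the threshold, and 2.27 ± 0.60 without them.

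The stretch around the annotated Grem1 start is shown with that of Id1 and of Bmpr2, the target gene and the receptor described below. Each holds 250 bases before and 50 from the start onwards, taken from RefSeq in build GRCr8, and not in mRatBN7.2, the build named for the counts. Grem1 lies at chr3:120978270-120978569 on the minus strand, Id1 at chr3:161671314-161671613 on the plus strand and Bmpr2 at chr9:68686566-68686865 on the plus strand. Capitals mark GGCGCC (a GC-rich SMAD1/5 element, its own reverse complement), CAGAC on either strand (the core of a SMAD binding element) and TATAAA on either strand (a TATA box).
Grem1: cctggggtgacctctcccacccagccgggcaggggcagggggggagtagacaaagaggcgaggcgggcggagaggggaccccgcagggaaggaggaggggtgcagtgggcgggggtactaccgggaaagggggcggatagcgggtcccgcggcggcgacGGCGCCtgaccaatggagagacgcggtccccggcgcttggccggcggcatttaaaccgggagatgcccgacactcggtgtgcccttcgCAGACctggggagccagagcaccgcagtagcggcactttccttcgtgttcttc
Id1: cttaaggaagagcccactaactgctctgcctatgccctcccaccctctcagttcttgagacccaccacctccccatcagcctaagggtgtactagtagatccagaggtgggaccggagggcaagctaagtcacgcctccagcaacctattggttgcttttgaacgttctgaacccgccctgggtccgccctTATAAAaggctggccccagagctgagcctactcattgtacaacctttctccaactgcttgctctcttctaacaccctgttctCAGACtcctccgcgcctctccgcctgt
Bmpr2: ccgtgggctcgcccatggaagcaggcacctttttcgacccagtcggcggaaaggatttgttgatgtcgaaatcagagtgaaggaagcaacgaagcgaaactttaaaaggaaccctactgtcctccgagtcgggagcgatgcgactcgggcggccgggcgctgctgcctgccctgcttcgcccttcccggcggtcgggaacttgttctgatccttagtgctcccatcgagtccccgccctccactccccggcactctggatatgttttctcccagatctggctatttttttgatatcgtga
The Grem1 window held GGCGCC from -91 and CAGAC from -3, counted from the first transcribed base as 0. The Id1 window held TATAAA from -59 and CAGAC from 23, and the Bmpr2 window held none of the 3 motifs. No match overlapped another. Of 33469 rat windows of the same length, 11.02% held GGCGCC, 50.1% CAGAC and 14.2% TATAAA, so CAGAC in particular is common. Windows were found for 8 of the 9 genes, and each of these had more G and C (55.7% in Id1 to 73.0% in Nog) than the median window (51.7%). A match is a run of letters and not evidence of binding.

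Noggin and chordin-like 1 overlapped between the groups. Nog (ENSRNOG00000023683) had 1.48, 2.02 and 6.11 CPM as the lowest, median and highest control value, and 1.93, 2.47 and 3.60 CPM in DA. The DA values all lay within the control range, and the log2 fold change was -0.14 ± 0.37 (SE, n = 6). It was 0.21 without control replicate 4, the highest library, and just above 0 with a replicate block, so its sign is not settled. Chrdl1 (ENSRNOG00000004330) ran from 11.2 through 16.6 to 23.9 CPM in control and from 10.3 through 18.5 to 20.96 CPM in DA. Its log2 fold change was -0.02 ± 0.23, from -0.12 to 0.10 over the fits that left out 1 library, and positive under upper quartile scaling.

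Set against the other listed antagonists and modulators, Grem1 stayed a minor transcript. That list is not of antagonists alone, and Bmp1 and Tll1 are on it as modulators. Per gene length it reached 0.762 ± 0.797 FPKM in DA, and it made up 0.466% ± 0.654 (SD, n = 6) of the summed FPKM of 21 listed antagonists and modulators there, against 0.0236% ± 0.0152 in control. The highest DA library reached 1.77% for Grem1, again replicate 4.

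**Figure D2:**
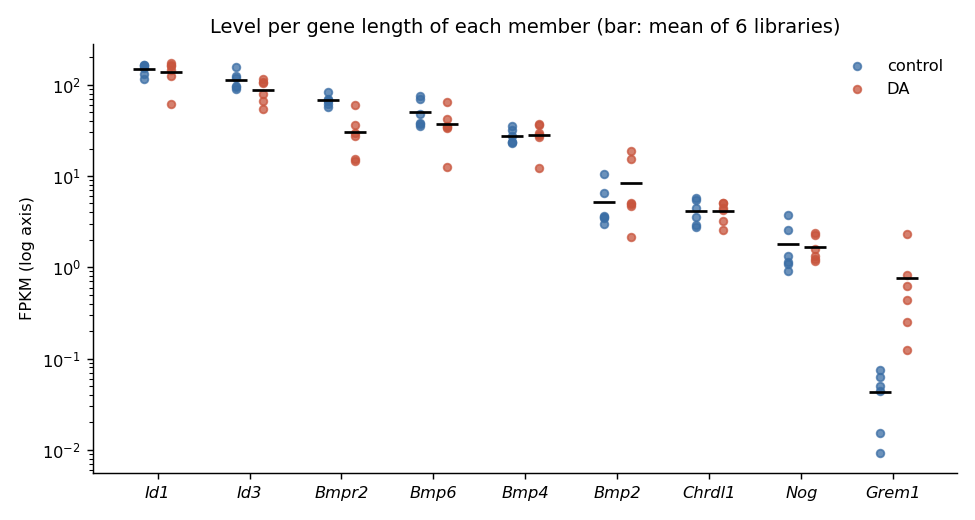
FPKM on a log axis, a level per gene length, of the 9 genes in the 6 libraries of each group, with a bar at each mean. Id1 stands highest and Grem1 lowest in both groups, and Grem1 moves from 0.0428 to 0.762 FPKM.

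The ligand transcripts were ordered Bmp6, Bmp4, Bmp2 per gene length in both groups. In control lungs the means were 50.5 ± 18.05, 27.6 ± 5.01 and 5.14 ± 2.94 FPKM (SD, n = 6). In DA lungs they were 37.2 ± 16.7, 28.4 ± 8.93 and 8.47 ± 6.77 FPKM. The ranges of Bmp6 and Bmp4 overlapped in both groups, so those neighbours are not separated by their spread. In control they barely met, with Bmp6 from 35.01 FPKM and Bmp4 up to 35.06 FPKM. In DA they overlapped broadly, at 12.6 to 64.5 FPKM for Bmp6 and 12.2 to 36.8 FPKM for Bmp4. Bmp4 and Bmp2 were separated in control and not in DA. Over all 9 genes the order in control was Id1, Id3, Bmpr2, Bmp6, Bmp4, Bmp2, Chrdl1, Nog, Grem1. In DA it was the same except that Bmp6 stood above Bmpr2, whose ranges overlapped there as in control.

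Bmp4 (ENSRNOG00000009694), which acts in lung branching and on endothelium, overlapped between the groups. Its lowest, median and highest values were 93.7, 103 and 139.8 CPM in control and 44.7, 115 and 148 CPM in DA. All DA libraries but replicate 4 lay above the control mean, and the log2 fold change was 0.04 ± 0.23 (SE), or 0.20 without that replicate. It was -0.32 ± 0.41 within the libraries with Y-linked reads and 0.37 ± 0.13 within those without, so its sign turned between them. Bmp6 (ENSRNOG00000013717), an endothelial ligand that also drives hepcidin in liver, ran from 127 through 156 to 275 CPM in control and from 42.1 through 129.99 to 236 CPM in DA. Its log2 fold change was -0.44 ± 0.33, with 5 of 6 DA libraries below the control mean. The control libraries with Y-linked reads were the 2 highest for Bmp6, at 275 and 249.6 CPM, and within the libraries with such reads its log2 fold change was -1.001 against -0.0048 within those without. The difference between these effects was not called for any of the 9 genes (edgeR interaction, adjusted p from 0.548 to 0.99987). That interaction was called for 0 of 14517 genes, with 1137 at an unadjusted p under 0.05, in cells of only 2 to 4 libraries.

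Bmp2 (ENSRNOG00000071010) had the largest SD relative to its mean of the 3 ligands among the 9 genes, in both groups. Control libraries ran from 3.64 through 4.59 to 13.5 CPM, and DA libraries from 2.49 through 6.19 to 24.8 CPM. DA replicates 2 and 6 were high, at 19.5 and 24.8 CPM, and the other DA libraries lay within or below the control range. The log2 fold change of 0.74 ± 0.52 (SE, n = 6) fell to 0.31 without DA replicate 6.

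Bmpr2 (ENSRNOG00000022196) was the other of the 9 genes past the threshold, from which nothing is read. Its reads gave 626, 711, 919, 765, 752 and 682 CPM in control replicates 1 to 6. DA replicates 1 to 6 gave 301, 675, 326, 147, 167 and 416 CPM. All 6 DA libraries lay below the control mean, and DA replicate 2 lay inside the control range, so the groups overlapped by that library. The mean went from 743 ± 99.9 to 339 ± 193 CPM (SD, n = 6), a log2 fold change of -1.13 ± 0.31 (SE), or 2.19-fold lower. It ranged from -1.46 (without DA replicate 2) to -0.98 (without DA replicate 4) with 1 library left out. Bmpr2 was not past the threshold in 6 of those 12 fits, those without control replicate 3, 4, 5 or 6 or DA replicate 1 or 3, nor with a term for Y-linked reads. Its log2 fold change was -0.88 ± 0.52 among libraries with such reads, where no gene was past the threshold. Among those without them it was -1.42 ± 0.35.

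Endothelial markers were lower in some of the same libraries. Of 11 endothelial genes in the table and tested, 1 fell, Tek, and 0 rose, with a median log2 fold change of -0.45, and none of them was at 0 in any library. Their summed level ran from 3721 to 5549 CPM in control and from 1344 to 5431 CPM in DA, lowest in DA replicate 4 and highest among DA libraries in replicate 2. Bmpr2 came to 15.7% ± 1.92 (SD, n = 6) of that sum in control, from 12.9% to 18.3%. It came to 9.57% ± 2.42 in DA, from 5.82% to 12.4%, so this ratio was lower in each DA library than in any control library. The 11 markers did not move together, with log2 fold changes from -1.17 for Tek to 0.80 for Emcn, so the ratio depends on the markers summed. It is a description, and a lower ratio follows in part from the log2 fold change of Bmpr2 (-1.13) beside the marker median (-0.45). The part of endothelial content in the Bmpr2 difference was not tested.

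**Figure D3:**
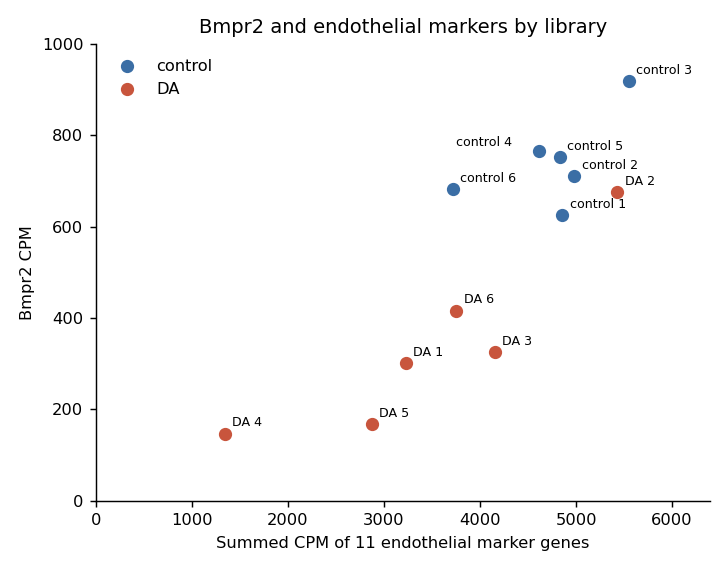
Bmpr2 CPM against the summed CPM of 11 endothelial marker genes, 1 point for each library. DA replicate 2, at 5431 CPM for the markers and 675 CPM for Bmpr2, lies among the control points, and DA replicate 4 is lowest on both axes.

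The target genes were the most abundant of the 9 per gene length and overlapped between the groups. Id1 (ENSRNOG00000021750) had 108, 148 and 158 CPM as its lowest, median and highest control values, and 53.4, 146 and 159 CPM in DA. DA replicate 4 was low and the other 5 DA libraries, from 115.7 CPM up, overlapped the control libraries throughout. The log2 fold change of Id1 was -0.11 ± 0.22 (SE, n = 6) and turned to 0.05 without DA replicate 4. Id3 (ENSRNOG00000026124) ran from 87.1 through 104 to 149.9 CPM in control and from 48.5 through 88.5 to 111 CPM in DA. Its log2 fold change was -0.37 ± 0.20, or -0.26 without DA replicate 4, and 5 of 6 DA libraries lay below the control mean.

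DA replicate 4 held the lowest value of the 12 libraries for 6 of the 9 genes, namely Bmp2, Bmp4, Bmp6, Bmpr2, Id1 and Id3, and the highest for Grem1. No other library was lowest for more than 1 of them. The share of its cardiac muscle reads in these values was not tested.

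**Figure D4:**
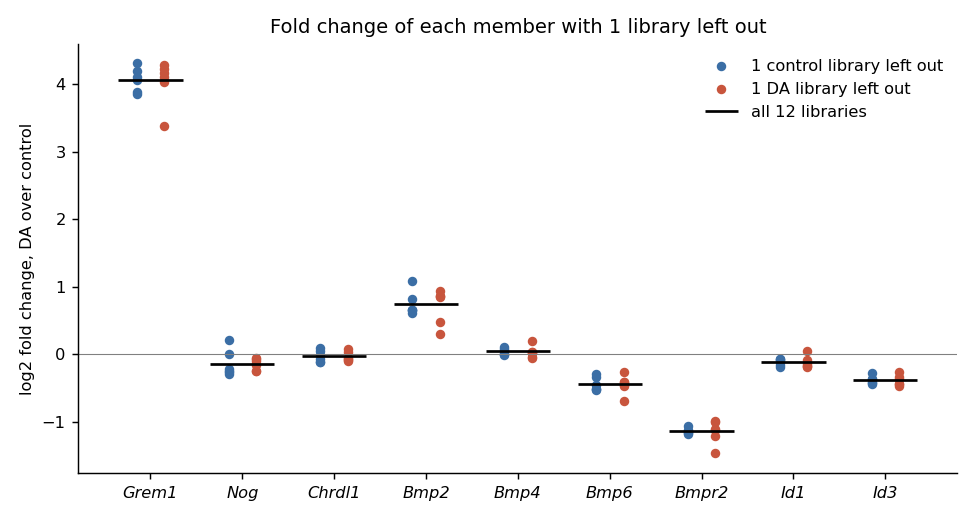
log2 fold change, DA over control, of each of the 9 genes in 12 edgeR fits that each left out 1 library, beside the fit with all libraries (bar). Grem1 stays between 3.38 and 4.30 and Bmpr2 between -1.46 and -0.98, while Nog, Chrdl1, Bmp4 and Id1 change sign.

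Beyond the 9 genes, 64 further genes of the pathway were in the table and 51 were tested. Of these, 2 rose and 3 fell, or 9.80%, against 16.0% of all genes tested. Without overlap of the groups 0 rose and 3 fell, where 6.04% of all genes did not overlap (451 higher and 426 lower). Nothing is read from so few. The median log2 fold change was -0.05 over the 51 and 0.03 over all genes. The number that rose was 0 without control replicate 4 or 6 (3 at an unadjusted p under 0.05 in both) and 4 without DA replicate 4. The number that fell was 9 without DA replicate 2.

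Of the 9 further receptors and co-receptors tested 1 fell (11.1%), and of the 13 antagonists and modulators 2 rose and 1 fell (23.1%). The share over all genes tested was 16.0%, and no theme is read from so few genes. Rgma, a glycolipid-anchored BMP co-receptor, fell by 0.72 ± 0.17 on the log2 scale (SE; edgeR adjusted p = 0.0155), from 48.9 to 82.9 CPM in control to 23.3 to 44.5 CPM in DA. Crim1, a transmembrane protein that binds BMPs and limits their release, fell by 0.80 ± 0.20 (edgeR adjusted p = 0.0201), from 283 to 369 CPM down to 99.7 to 259 CPM. The groups did not overlap for either gene, and both calls held in each of the 12 fits that left out 1 library. Rgma was not called among libraries without Y-linked reads (adjusted p = 0.155), and neither was called among those with them. Fstl1, a secreted follistatin-like protein that binds BMP4, rose by 0.95 ± 0.24 (edgeR adjusted p = 0.0221), with means of 169.7 and 327 CPM and 5 of 6 DA libraries above the control mean. Fstl1 narrowly lost its call without control replicate 3, 4 or 6 (adjusted p = 0.0502, 0.0512 and 0.0505). Fstl3, known mainly for binding activins, rose by 0.95 ± 0.29 (edgeR adjusted p = 0.0413), with means of 34.1 and 65.8 CPM. That call held in 2 of the 12 fits, those without DA replicate 4 or 5, and was lost in limma and with a replicate block (adjusted p = 0.0793). Follistatin itself, Fst, picked after its values were seen, ranged from 12.3 to 29.7 CPM in control and from 11.8 to 128 CPM in DA (edgeR adjusted p = 0.139).

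Over the whole antagonist and modulator list, 13 further genes were tested, of which 2 rose and 1 fell (23.1%, against 16.0% of all genes tested). The median of the 13 was 0.15 on the log2 scale. The list's summed FPKM was 188 ± 18.2 in control and 214 ± 47.6 in DA (SD, n = 6), so its groups overlapped. The modulator Bmp1, which is in this sum, had means of 25.7 and 37.9 FPKM, so the sum is not a level of antagonists alone. Beside the 21-gene sum, the summed FPKM of the 14 listed ligands was 95.7 ± 23.4 in control and 91.0 ± 27.3 in DA. Connective tissue markers differed between the same groups, where 8.45% of all genes tested were higher and 7.51% lower in DA. Of 9 fibroblast genes 3 rose (Col1a1, Col1a2 and Lum) and 2 fell (Pdgfra and Tcf21). Their summed level was 1452 to 1635 CPM in control and 1960 to 4215 CPM in DA. That sum was raised mainly by the collagen genes, with means of 348 and 1345 CPM for Col1a1 and 345 and 984 CPM for Col1a2. Mean Pdgfra went from 333 to 161 CPM and mean Tcf21 from 167 to 79.8 CPM, so the fibroblast markers went both ways. Of 7 smooth muscle genes 5 rose and 0 fell, at 674 to 1294 CPM against 1422 to 4433 CPM. None of these markers was at 0 in any library, and their part in the antagonist and modulator values was not tested.

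Among receptors and co-receptors, 9 further genes were tested, of which Rgma fell and 0 rose (11.1%, against 16.0% of all genes tested). The median of the 9 was -0.28 on the log2 scale. The endothelial receptors Acvrl1 and Eng, picked after their values were seen, were abundant and spread widely in DA. Acvrl1 ran from 607 to 934 CPM in control and from 208 to 863 CPM in DA (log2 fold change -0.48 ± 0.26, edgeR adjusted p = 0.211). Eng ran from 888 to 1162 CPM and from 246 to 1370 CPM (log2 fold change -0.57 ± 0.32, edgeR adjusted p = 0.23). The type I receptor Bmpr1a, chosen the same way, had a log2 fold change of 0.23 ± 0.17 (edgeR adjusted p = 0.377).

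Of 16 SMADs and intracellular regulators, 1 fell and 0 rose (6.25%, against 16.0% of all genes tested), with a median of -0.14. Smad4, the partner shared by BMP and TGF-beta signalling, fell by 0.29 ± 0.09 (edgeR adjusted p = 0.0385), from 181 to 206 CPM down to 128 to 175 CPM, with no overlap of the groups. That small difference kept its call in 5 of the 12 fits with 1 library left out. It lost it without control replicate 2, 3, 4, 5 or 6 or DA replicate 1 or 3 (adjusted p from 0.0587 to 0.0834), and also under upper quartile scaling (0.0660), with no filter (0.0550), with the replicate block (0.0889), with a term for Y-linked reads (0.0925) and within the libraries with or without such reads (0.553 and 0.276). The inhibitory Smad6, picked after its values were seen, ran from 321 to 499 CPM in control and from 64.8 to 395 CPM in DA (log2 fold change -0.81 ± 0.35, edgeR adjusted p = 0.123).

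Ligands and target genes outside the 9 were not called in the fit over all genes past the count filter, where 16.0% of all genes were called. Of 7 further ligands, 0 passed in either direction, 0 at an unadjusted p under 0.05 and 0 by DESeq2. The most abundant of them by FPKM, Bmp3, had means of 18.9 ± 6.81 and 32.0 ± 19.0 CPM (SD, n = 6; log2 fold change 0.76 ± 0.39, edgeR adjusted p = 0.189). Of 6 further target genes 0 passed, with 2 lower at an unadjusted p under 0.05 and 1 lower by DESeq2, Hey1, and their median was -0.50 on the log2 scale. Id2, the most abundant of them by mean FPKM over the 12 libraries, stood at 27.6 and 27.96 FPKM (log2 fold change 0.01 ± 0.13, edgeR adjusted p = 0.953). Tmem100, an endothelial target gene picked after its values were seen, stood at 28.8 and 20.2 FPKM (log2 fold change -0.50 ± 0.29, edgeR adjusted p = 0.242). Hey1 was also called lower with the replicate block. Hamp, which encodes hepcidin and was picked the same way, did not pass the count filter, with at most 0.0726 CPM in control and 0 to 2.49 CPM in DA. It was called higher by edgeR with no filter and with the filter on mean FPKM. Hamp passed the latter through the DA libraries alone, with means of 0.029 FPKM in control and 1.63 FPKM in DA. Control libraries held at most 1 of its reads and the DA median was 2 reads, so nothing is read from these calls. A p that misses the threshold does not show equal levels.

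**Figure D5:**
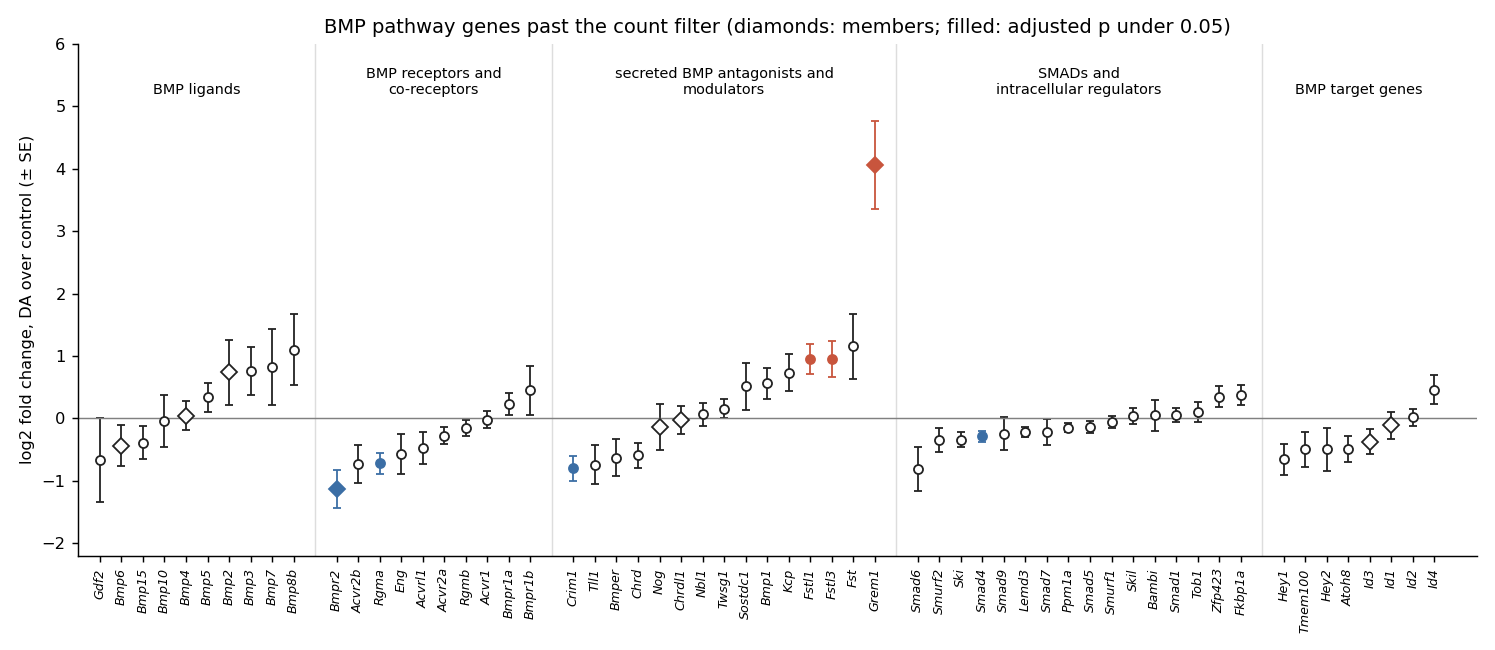
log2 fold change, DA over control, with its standard error, of 59 pathway genes past the count filter, grouped by role (diamonds are the 9 genes, filled symbols have an adjusted p under 0.05 in edgeR). Grem1 stands at 4.06, and the others lie between -1.13 and 1.16.

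Profiles most like that of Grem1 were sought over the 12 libraries by the root mean square difference of log2 CPM, each gene centred on its mean. The 5 nearest were Nek2l1, Ccno, E2f7, Ptn and Adam28, at differences of 0.70, 0.70, 0.72, 0.81 and 0.82. Their log2 fold changes ran from 2.49 for Adam28 to 4.53 for Ccno. Large positive values follow from the choice, since Grem1 itself differs strongly between the groups in these 12 libraries. Ccno is needed to make multiciliated airway cells, E2f7 is a cell cycle repressor and Ptn encodes the growth factor pleiotrophin. For Id1 the nearest were Esam, Sqor, Rras, Mat1a and Dennd2c, at differences of 0.14 to 0.17. Esam, an endothelial adhesion gene, had a log2 fold change of -0.05. Id1 was low in DA replicate 4, at 53.4 CPM against 108 CPM or more in control. The lowest DA value of Esam was 70.6 CPM, against 151 CPM or more in control. The part of DA replicate 4 in this likeness was not tested.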

How the data were processed

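RNA of 12 rat lungs, 6 per group, was sequenced on an Illumina instrument. The submitters' processing notes name HISAT2 2.2.1, HTSeq 2.0.2 and the build mRatBN7.2. The strand setting, annotation release and filters are not given in the sources used here, so reads of overlapping and antisense genes cannot be told apart. The authors deposited raw read counts for each Ensembl gene. Beside them, per the file headers, stand the authors' FPKM values of the same libraries. Genes were matched by name, and of 143 listed genes 138 matched by name, 1 by a RefSeq synonym and 4 not at all.

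Groups followed the labels. Replicates are taken as separate rats, and a p-value measures the spread between them. The count filter filterByExpr left 14517 of 23096 genes, which were TMM-scaled and given to edgeR 4.0.16 (R 4.3.3) for its quasi-likelihood test, two-sided, with group as the only term and Benjamini-Hochberg adjustment over all of them, threshold 0.05. CPM values use the TMM-scaled totals of these genes, and the SE of a fold change follows from that value and its F statistic. Floors cover counting error only. The fit was tested on simulated data. The common biological coefficient of variation was 31.0%. Alternatives used DESeq2 1.42.0, limma 3.58.1 on log2(FPKM + offset), other scalings and filters, a replicate block, Y-linked reads and leaving out each library. The interaction with Y-linked reads was added after the data were seen. The 9 genes and the lists were chosen with earlier results of these data known. Further pathway genes were named if past the threshold, or else as the most abundant by mean FPKM of a list with none, and others are marked where they appear. A further pathway gene is not reported here by name, though it is in the counts.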

Additional observations from a re-analysis of the deposited data

Results flagged for a closer look

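A sample far from the rest of its group of 6 was looked for, on log2 CPM, in the 9 genes and the 7 further pathway genes named by rule, in 32 groups of values, and chance flags about 1 in 20. In 4 of them the gap to the nearest library, as a share of the whole range, passed the critical value of Dixon's test. DA replicate 4 was lowest for Bmp4 (share 0.777, at 5.49 against 6.83 in the next library), for Id1 (0.710, 5.74 against 6.86) and for Fstl3 (0.626, 4.33 against 5.80). Control replicate 3 was highest for Rgma (0.639, 6.37 against 5.89).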

How the results depend on the processing

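The genes higher and lower in DA numbered 1888 and 1645 by DESeq2, 549 and 572 with a term for Y-linked reads, and 0 and 0 by edgeR among libraries with such reads (902 and 486 at an unadjusted p under 0.05, in 2 against 4 libraries). Genes higher numbered 677 with a replicate block and 710 among libraries without Y-linked reads. With 1 library left out they ran from 578 to 1558 and were over 1.5 times fewer without control replicate 2, 3, 4, 5 or 6 or DA replicate 1. Genes lower ran from 578 to 1461, and were that much fewer without control replicate 3, 4 or 5 or DA replicate 1. Of the 51 further pathway genes, those higher numbered 1 in limma at each of the offsets 0.5, 0.1 and 1, 1 with a replicate block, 0 among libraries with Y-linked reads (1 at an unadjusted p under 0.05) and 0 to 4 with 1 library left out. Those lower numbered 7 by DESeq2, 0 among libraries with Y-linked reads (4 unadjusted), 1 among those without and 2 to 9 with 1 library left out. The cause of these shifts was not tested.

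With the replicate block the log2 fold changes of Grem1 and Bmpr2 were 3.75 and -1.32. Libraries of the same number deviated from their group means with correlations of -0.26 to 0.30, and numbers 1, 2 and 3 of the 6 matched their own best. Not every pair was over 0.1, so a pairing of the rats is not established. The folds of the 9 genes moved by less than the spread between replicates in 200 of 206 alternatives. The exceptions were Grem1 at the 3 FPKM offsets (1.03, 2.18 and 0.66), Grem1 among libraries without Y-linked reads (2.27) and among those with them, where control lungs held 1 and 2 reads, and Nog among those with them (0.82). Grem1 could not be fitted at a mean FPKM of at least 1. Depth limits Grem1 in control lungs, at 30 reads in all.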
